A study of Rattus norvegicus with 24 samples.

Results

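The genes described here are 31 listed genes of the neuronal cytoskeleton, neuronal RNA-binding proteins, voltage-gated sodium channels and the presynaptic terminal, matched by symbol to the deposited expression table. Of these, 29 were among its 12187 genes, and Nefh and Eno2 were not analysed here. They were read in 6 RNA-seq libraries, 2 for each of 3 groups. The groups were Sprague-Dawley rat neural stem cells labelled D0, cells differentiated from neural stem cells without vitamin C (VC-), and cells differentiated with vitamin C (VC+), which is a cofactor of iron-dependent dioxygenases. In the differentiated cells the replicate 1 libraries carry a D4 label and the replicate 2 libraries a D5 label, and the labels leave unsaid whether replicates came from separate cultures or animals. A p-value here therefore covers only the spread between these libraries, which may be technical. The comparisons set differentiated cells against stem cells, and cells given vitamin C against cells lacking it, first for genes of young neurons and then for genes of synapses.

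A neuron leaving the progenitor state first builds its cytoskeleton and growth cone, with tubulin, stathmins, doublecortin and collapsin response mediators, and begins to use RNA-binding proteins of the ELAV family. The machinery that fills, docks and fuses synaptic vesicles is built up later, as axons find their targets. In non-neuronal cells many of these genes are held down by the repressor REST, which binds a DNA element called RE1. Several of the genes are not strictly neuronal: oligodendrocytes, for example, also make tau, and radial glia and oligodendrocyte precursors express Ncam1.

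Levels are given as CPM, reads per gene scaled to a common library total, and are compared only within a gene because CPM is not divided by gene length. For each gene the 3 values of a replicate set are in the order stem cells, cells without vitamin C and cells with vitamin C. Differences are of log2(CPM + 0.5), within 1 replicate set, except where a standard error (SE) is printed; those come from limma, a linear model fitted to each gene, with 2 libraries in each group. All 29 genes reached 1 CPM in at least 2 libraries and were tested, and their values ran from 0.657 to 430 CPM. The lowest rested on 10 reads. RNA was taken from whole cultures, so more cells of a type and more RNA per cell cannot be told apart.

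The replicate sets stood apart, and markers of several other cell types moved with them. The libraries held 4811094 to 6641721 listed reads in replicate 1 and 10299321 to 13184601 in replicate 2. The summed CPM of 17 oligodendrocyte lineage genes was 2558, 14311 and 11685 in replicate 1 and 874, 1280 and 1113 in replicate 2. That of 12 microglia and macrophage genes was 4.77 to 5.30 in replicate 1 and 322 to 828 in replicate 2, and that of 8 fibroblast, pericyte and meninges genes was 109 to 285 and 3740 to 8841. The 12 astrocyte genes summed to 2214, 2705 and 6592 CPM in replicate 1 and to 4233, 5054 and 10704 CPM in replicate 2. Stem and progenitor genes (9 measured) summed to 4017, 4040 and 3238 CPM in replicate 1 and to 5450, 4640 and 5040 CPM in replicate 2. Cell cycle genes (10 measured) summed to 1014, 443 and 443 CPM and to 731, 332 and 446 CPM, lower than in stem cells in both sets. Endothelial genes (6 measured) summed to 3.91, 5.35 and 8.23 CPM in replicate 1 and to 18.9, 27.8 and 53.1 CPM in replicate 2. C1qa, a complement gene of microglia, was at 0, 0.349 and 0 CPM in replicate 1. The part of these cell types in the values that follow was not tested, and values are shown for each replicate set.

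Of 10 early neuronal genes, 7 were higher in differentiated cells than in stem cells in both replicates, with and without vitamin C: Tubb3, Stmn2, Stmn3, Stmn4, Dpysl3, Crmp1 and Elavl3. Tubb3, the neuron-enriched beta tubulin, had 10.5, 46.9 and 31.4 CPM in replicate 1, and 45.7, 91.0 and 91.3 CPM in replicate 2. Both libraries without vitamin C were above both stem cell libraries, while those with vitamin C overlapped them. Stmn4, a stathmin that binds tubulin dimers, went from 3.15 CPM in stem cells to 126 and 70.0 CPM in replicate 1, and from 9.13 CPM to 28.7 and 26.2 CPM in replicate 2. All 4 differentiated libraries were above both stem cell libraries, and the difference without vitamin C was 3.36 (SE 0.94), being 5.12 in replicate 1 and 1.60 in replicate 2.

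Elavl3, an RNA-binding protein of young neurons, stood at 3.28, 54.9 and 42.0 CPM in replicate 1, against 8.34, 14.6 and 13.3 CPM in replicate 2. Dpysl3, a collapsin response mediator of growth cones, stood at 25.2, 263 and 239 CPM and at 86.5, 160 and 159 CPM. For both genes every differentiated library exceeded both stem cell libraries, and the difference without vitamin C was larger in replicate 1 (3.87 for Elavl3, 3.35 for Dpysl3) than in replicate 2 (0.77 and 0.88). Crmp1, of the same mediator family, stood at 62.3, 167 and 99.6 CPM and at 75.8, 84.0 and 76.6 CPM. Stmn3, another stathmin, stood at 13.9, 45.2 and 20.8 CPM and at 19.3, 21.2 and 23.9 CPM. These 2 genes were well above stem cells without vitamin C in replicate 1 and close to them in replicate 2, by 0.15 and 0.13. Rtel1 overlaps the span of Stmn3 and stood at 121 to 149 CPM in replicate 1 and at 66.5 to 82.5 CPM in replicate 2.

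Stmn2, a stathmin of growing axons, stood at 5.04, 15.3 and 9.95 CPM in replicate 1, against 31.0, 59.96 and 80.2 CPM in replicate 2. Each replicate 2 library was above every replicate 1 library, so groups overlapped although both sets were higher after differentiation. Dcx, a microtubule-binding protein of migrating young neurons, stood at 82.2, 139 and 125 CPM and at 83.2, 61.6 and 50.0 CPM. Its stem cell levels were nearly equal, and its differentiated levels lay above them in replicate 1 and below them in replicate 2. Gap43, a growth cone protein also made by glial precursors, stood at 133, 171 and 101 CPM and at 91.8, 72.3 and 81.5 CPM. Elavl4, the other ELAV member here, stood at 12.2, 11.3 and 7.18 CPM and at 26.02, 16.4 and 15.2 CPM, and was the early gene that was lower than in stem cells in all 4 comparisons within a replicate.

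**Figure D1:**
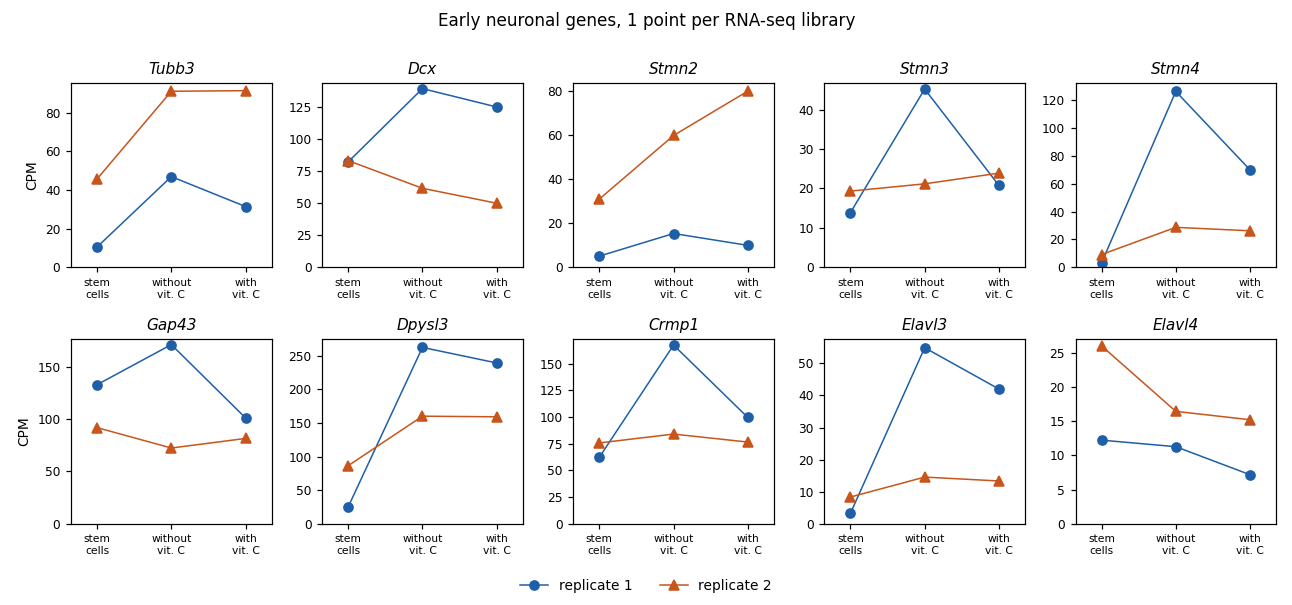
CPM of the 10 early neuronal genes in each of the 6 RNA-seq libraries, by group on the x axis (vit. C, vitamin C), with each y axis starting at 0; lines only join libraries of 1 replicate set (circles, replicate 1; triangles, replicate 2). Stmn4 and Elavl3 are highest in the replicate 1 differentiated cells (126 and 54.9 CPM without vitamin C), and Tubb3 and Stmn2 are highest in the replicate 2 differentiated cells (91.3 and 80.2 CPM with it).

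Promoter sequence was looked at for all members with a window, early genes or not, because REST acts through RE1. RefSeq windows of the 250 bases before the gene start were found for 21 of the 29 genes (22 windows, as Dpysl3 had 2), on GRCr8, a later assembly than the rn5 build of the submitters' notes. The whole RE1 consensus, on either strand, matched 0 of these 21 genes and 0% of the 9676 windows of genes in the table. Its left part TCAGCACC matched Tubb3 and Elavl4, against 1.47% of the table's windows, and its right part matched 0 of the 21 genes, against 0.61%. The E-box CANNTG, read by neurogenic factors, matched 14 of the 21 genes, against 56.6%, and the TATA motif TATAAA matched 4, against 6.53%. Matches are counted by gene, while the percentages are of windows. A match is a description of letters and not of binding. An element outside the 250 bases, or one that varies from the consensus, would be missed. The windows of the 2 genes with a match are shown 5′ to 3′ on the gene's strand, with capitals on the match, which reads as the reverse complement of the motif and starts 125 and 144 bases before the gene start.
Tubb3, GRCr8 chr19:68365437-68365686, plus strand: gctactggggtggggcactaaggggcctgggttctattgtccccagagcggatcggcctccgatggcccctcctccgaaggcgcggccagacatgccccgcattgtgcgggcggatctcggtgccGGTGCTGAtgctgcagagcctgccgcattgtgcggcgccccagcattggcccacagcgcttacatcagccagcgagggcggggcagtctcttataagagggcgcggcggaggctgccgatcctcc
Elavl4, GRCr8 chr5:130367664-130367913, minus strand: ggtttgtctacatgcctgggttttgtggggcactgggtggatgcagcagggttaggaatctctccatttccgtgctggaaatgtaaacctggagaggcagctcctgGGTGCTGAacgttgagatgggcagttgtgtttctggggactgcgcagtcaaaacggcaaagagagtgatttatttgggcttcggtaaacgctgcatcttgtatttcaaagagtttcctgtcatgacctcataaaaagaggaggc

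Rest, the gene of that repressor, stood at 18.8, 21.6 and 21.1 CPM in replicate 1, against 34.8, 28.3 and 29.03 CPM in replicate 2, with a difference without vitamin C of -0.05 (SE 0.40) from stem cells. All 3 replicate 2 levels were above all 3 replicate 1 levels. Of 12 measured genes of REST and its corepressors, 1 was higher and 3 were lower in both replicates without vitamin C than in stem cells. Of all genes tested, 28.6% were higher and 29.5% lower in both replicates in that comparison. With vitamin C, 2 of the 12 were higher and 5 lower in both (28.6% and 29.0% of all genes), with a median of -0.08. The 2 of highest mean level were Ehmt2, a histone methyltransferase, at 283, 341 and 305 CPM and at 280, 246 and 227 CPM, and Sin3b, a corepressor scaffold, at 131, 145 and 133 CPM and at 181, 174 and 182 CPM.

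Of 8 synaptic vesicle genes, 4 were higher than in stem cells in both replicates without vitamin C, and 2 with it. Vamp2, the vesicle SNARE of synaptobrevin type, stood at 98.4, 149 and 131 CPM in replicate 1, against 74.7, 91.8 and 84.6 CPM in replicate 2. Snap25, its partner SNARE on the plasma membrane, stood at 5.80, 6.63 and 4.21 CPM and at 6.70, 14.2 and 13.2 CPM. Against stem cells Snap25 differed by 1.03 without and 0.92 with vitamin C in replicate 2, and by 0.18 and -0.42 in replicate 1. Syt1, the calcium sensor of release, stood at 5.04, 7.32 and 10.1 CPM and at 31.2, 13.2 and 14.4 CPM. It was highest in the replicate 2 stem cells, so its difference from stem cells had opposite signs in the replicates, 0.50 and -1.21 without vitamin C.

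Sv2a, a vesicle glycoprotein, also went both ways, with 30.6, 62.0 and 75.2 CPM in replicate 1 and 40.7, 26.3 and 29.6 CPM in replicate 2. Syp, an abundant vesicle membrane protein, did so to a smaller extent, with 9.46, 16.4 and 14.4 CPM and 22.1, 18.9 and 20.1 CPM. Cplx1, a complexin that clamps SNARE complexes, stood at 2.396, 6.39 and 7.46 CPM and at 0.657, 1.02 and 1.45 CPM. It was higher after differentiation in both replicates, and rested on 10 to 78 reads per library.

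The synapsins coat vesicles and tether them to the cytoskeleton. Syn1 stood at 27.7, 48.2 and 33.5 CPM in replicate 1, against 18.5, 21.8 and 18.4 CPM in replicate 2. Syn2 stood at 10.6, 9.998 and 4.31 CPM and at 7.36, 8.01 and 6.23 CPM, and was the lowest with vitamin C in both replicates. Timp1 and Araf overlap the span of Syn1 and Timp4 that of Syn2, and whether counting used strand is not given in the sources used here, so reads shared with them cannot be told apart. Timp1 was at 12.3 to 18.9 CPM in replicate 1 and 24.1 to 39.8 CPM in replicate 2, the opposite of the order for Syn1, while Araf was at 76.4 to 78.7 CPM and 63.0 to 72.0 CPM, in the same order as Syn1. Timp4 was at 24.5, 27.2 and 14.0 CPM and at 33.2, 10.05 and 8.33 CPM, and like Syn2 was lower in VC+ than in VC- in both sets. The Syn1 promoter window is shown, as an example of a synaptic gene promoter, with the cyclic AMP response element TGACGTCA in capitals, which starts 190 bases before the gene start and was found in 2 of 21 genes (Kif5c was the other) and in 2.91% of the table's windows.
Syn1, GRCr8 chrX:3725495-3725744, plus strand: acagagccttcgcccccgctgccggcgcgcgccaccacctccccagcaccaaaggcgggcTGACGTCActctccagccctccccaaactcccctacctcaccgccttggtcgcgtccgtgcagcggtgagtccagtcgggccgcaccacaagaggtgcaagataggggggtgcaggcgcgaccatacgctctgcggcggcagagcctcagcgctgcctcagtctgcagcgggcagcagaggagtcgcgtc

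**Figure D2:**
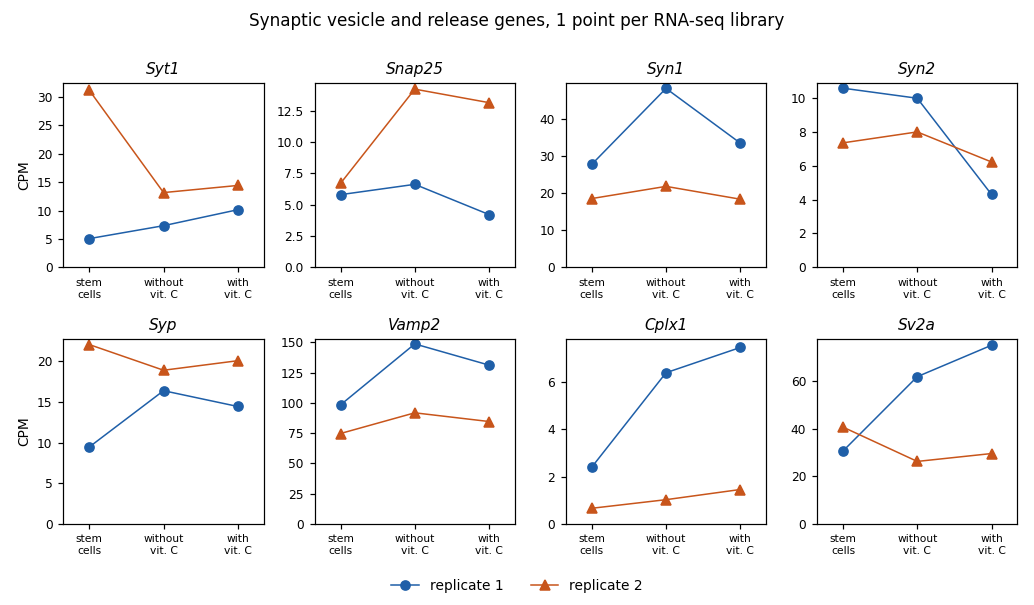
CPM of the 8 synaptic vesicle and release genes in each of the 6 RNA-seq libraries, by group on the x axis (vit. C, vitamin C), with each y axis starting at 0; lines only join libraries of 1 replicate set. Syt1 is highest in the replicate 2 stem cells (31.2 CPM), and Syn1, Vamp2 and Cplx1 are higher in replicate 1 in all 3 groups.

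The early and synaptic lists were set side by side. Without vitamin C the median difference was 1.06 for the 10 early genes (1.59 in replicate 1, 0.46 in replicate 2) and 0.36 for the 8 synaptic genes (0.68 and 0.17), against 0.01 over all genes tested. With vitamin C the medians were 0.78 (0.79 and 0.47) and 0.24 (0.50 and -0.07). Higher than in stem cells in both replicates were 7 of 10 early genes and 4 of 8 synaptic genes without vitamin C. With vitamin C these were 7 of 10 and 2 of 8. Of all genes tested, 28.6% were higher in both replicates in either comparison. The difference between the lists was not tested. With the VC- library of replicate 1 left out, the synaptic median against stem cells was -0.0059, and with the VC+ library of replicate 1 left out it was 0.04. With the D0 library of replicate 1 left out, the early medians were 0.58 (VC-) and 0.20 (VC+), and with that of replicate 2 left out they were 1.81 and 1.48.

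The remaining genes are mostly those of mature or general neuronal function. Mapt, which encodes the microtubule protein tau, stood at 8.45, 53.0 and 37.3 CPM in replicate 1, against 28.3, 66.9 and 97.0 CPM in replicate 2, above both stem cell libraries in all 4 differentiated libraries. Celf4, a neuronal RNA-binding protein, stood at 1.64, 10.3 and 8.80 CPM and at 11.04, 36.5 and 33.4 CPM. Its difference from stem cells was similar in the replicates, 2.34 and 1.68 without and 2.12 and 1.55 with vitamin C. Nsg2, an endosomal protein of neurons, stood at 42.6, 201 and 208 CPM and at 195, 313 and 325 CPM, higher after differentiation in both sets. Rbfox3, the splicing factor known as NeuN that marks mature neurons, stood at 3.15, 7.44 and 6.70 CPM and at 6.44, 10.6 and 7.63 CPM, with all differentiated libraries above both stem cell libraries.

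Map2 went the other way. This dendritic microtubule protein stood at 278, 212 and 206 CPM in replicate 1, against 220, 137 and 121 CPM in replicate 2, so that all differentiated libraries lay below both stem cell libraries. Its difference from stem cells was -0.54 (SE 0.38) without and -0.65 (SE 0.38) with vitamin C.

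In 3 further genes the replicate sets differed most in the stem cells. Ncam1, a neural adhesion molecule, stood at 47.3, 240 and 404 CPM in replicate 1, against 230, 202 and 253 CPM in replicate 2. Kif5c, a kinesin heavy chain that carries axonal cargo, stood at 37.8, 89.6 and 92.1 CPM and at 170, 94.9 and 81.1 CPM. Rtn1, a reticulon of the endoplasmic reticulum, stood at 191, 335 and 371 CPM and at 430, 255 and 297 CPM. In stem cells these 3 genes were higher in replicate 2 than in replicate 1 by 2.27, 2.16 and 1.17 on the log2 scale, while the differentiated cells of the sets lay closer together. Uchl1, a deubiquitinase abundant in neurons, stood at 37.0, 93.1 and 53.0 CPM and at 74.0, 85.3 and 96.4 CPM, with differences from stem cells of 1.32 and 0.20 without vitamin C.

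Against stem cells, 17 of the 29 genes were higher in both replicates without vitamin C and 2 were lower, against 28.6% and 29.5% of all genes tested. With vitamin C, 16 were higher and 4 lower in both, against 28.6% and 29.0%. The groups did not overlap for 11 of 29 genes without vitamin C (26.9% of all genes tested), of which 10 were higher than in stem cells, and for 12 of 29 with it (27.4%), of which again 10 were higher. The 2 lower with vitamin C were Map2 and Syn2. Both comparisons use the same stem cell libraries. The median difference over the 29 genes was 0.76 without and 0.41 with vitamin C, and 0.28 and 0.20 with the D0 library of replicate 1 left out. The former was 0.36 with the VC- library of replicate 1 left out, and the latter 0.82 with the D0 library of replicate 2 left out.

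The limma test passed 0 of 29 genes in either comparison with stem cells, against 0% of all genes tested, at an adjusted p under 0.05. At an unadjusted p under 0.05 there were 3 in each comparison, Stmn4, Dpysl3 and Mapt, against 3.23% of all genes tested without vitamin C and 4.29% with it. EdgeR passed 0 of 29 in both. DESeq2 without a replicate block passed Stmn4 alone among the 29 without vitamin C (adjusted p 0.0395, against 0.631% of all genes). It passed 0 with vitamin C (1.20% of all genes). With a replicate block DESeq2 passed more of the 29 genes, as given below where the dependence on processing is described. Stmn4 had an adjusted p of 1 by limma in both. A p that misses the threshold with 2 libraries in each group does not show that a gene was alike in the groups. In simulated data with a replicate difference like the one here, the unpaired limma fit had almost no power. Its count of 0 among the 29 genes is therefore no result about them.

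**Figure D3:**
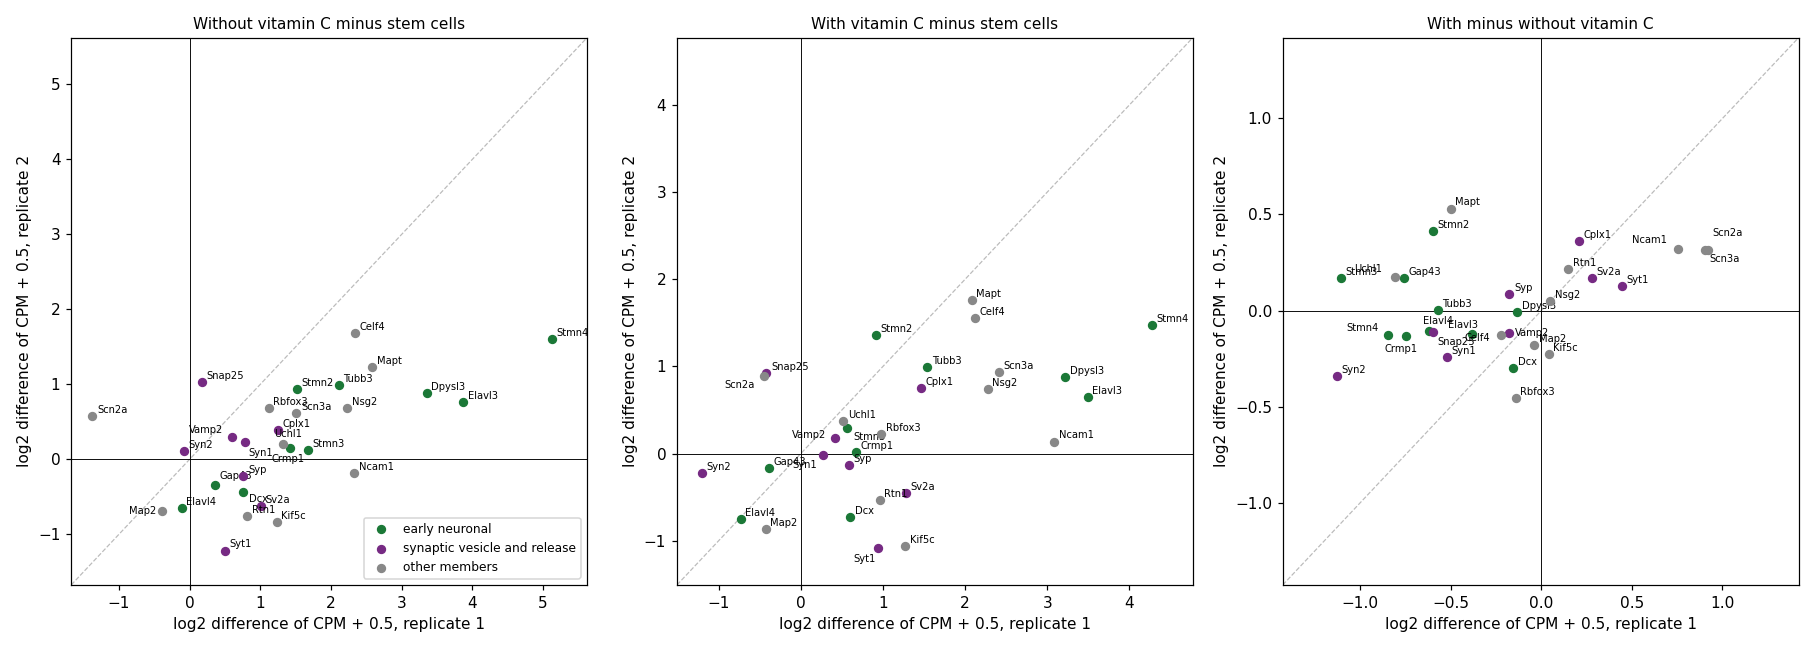
Differences of log2(CPM + 0.5) for the 29 genes in replicate 1 (x axis) and replicate 2 (y axis), for 3 comparisons of groups, with early neuronal genes in green, synaptic genes in purple and the others in grey; the dashed line marks equal differences. Against stem cells most points lie below the dashed line (medians of 1.23 and 0.23 in replicates 1 and 2 without vitamin C), and with against without vitamin C all 10 early genes lie left of 0.

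With vitamin C compared to without it, early genes were lower in replicate 1 and mixed in replicate 2. In replicate 1 all 10 early genes were lower, by 0.13 to 1.10 on the log2 scale with a median of -0.61, in a replicate where 48.5% of all genes tested were lower. In replicate 2 they ran from -0.30 to 0.42 with a median of -0.06, 6 lower and 4 higher. The genes lowest with vitamin C in replicate 1 were Stmn3 (-1.10), Stmn4 (-0.85), Gap43 (-0.76) and Crmp1 (-0.75). In replicate 2 these 4 were at 0.17, -0.13, 0.17 and -0.13. Stmn2 differed by -0.60 and 0.42, and Mapt by -0.50 and 0.53, so that both had opposite signs in the replicates.

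Among synaptic genes 3 were higher and 4 lower with vitamin C in both replicates. Their median was -0.10 (-0.18 and -0.01). Syn2 was lower by 1.13 and 0.34 on the log2 scale, and its groups did not overlap. Syn1 differed by -0.52 and -0.24, while Syt1 (0.44 and 0.13), Cplx1 (0.21 and 0.36) and Sv2a (0.28 and 0.17) were higher in both. The synaptic median was -0.45 with the VC+ library of replicate 1 left out and 0.04 with that of replicate 2 left out. It was 0.03 and -0.44 with the VC- libraries of replicates 1 and 2 left out.

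Both sodium channel genes were higher with vitamin C in both replicates. Scn2a, a main channel of the axon initial segment, stood at 12.2, 4.42 and 8.80 CPM in replicate 1, against 4.60, 7.09 and 8.94 CPM in replicate 2. Scn3a, the related channel of the fetal brain, stood at 1.39, 4.88 and 9.57 CPM and at 5.98, 9.46 and 11.9 CPM. For both genes, each library with vitamin C was above each library without it, by 0.62 (SE 0.58) for Scn2a and 0.61 (SE 0.73) for Scn3a. Ncam1 also had groups that did not overlap, with a difference of 0.54 (SE 0.77). These SEs are of the unpaired fit and include the difference between replicate sets. With a replicate block they were 0.52 for Scn2a, 0.44 for Scn3a and 0.74 for Ncam1. In all, groups did not overlap for 4 of 29 genes, against 16.0% of all genes tested.

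Over the 29 genes 8 were higher and 13 lower with vitamin C in both replicates, against 30.0% and 26.4% of all genes tested. The median over the 29 was -0.15 (-0.18 and 0.0046), against 0.02 over all genes tested. The unpaired limma test passed 0 of them, against 0% of all genes, with 0 at an unadjusted p under 0.05 (0.524% of all genes). With a replicate block limma again passed 0 of the 29. At an unadjusted p under 0.05 it then had 0 of the 29, against 404 of the 11823 genes tested. Without the block, edgeR and DESeq2 also passed 0, the latter against 0.0492% of all genes. The median over the 29 genes had the opposite sign, 0.07, with the VC- library of replicate 1 left out, and that of the early genes was then 0.18. With the VC- library of replicate 2 left out, the early median was -0.86 and the median over the 29 genes was -0.10. With the VC+ library of replicate 2 left out, these were -0.19 and -0.0013.

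The 29 genes were also compared between the replicate sets. In stem cells 22 of 29 were higher in replicate 2, against 51.0% of all genes tested, with a median of 1.06. In differentiated cells 10 were higher in both replicate 2 libraries than in both replicate 1 libraries and 12 were lower, against 36.7% and 37.4% of all genes, so that these shares lie near those of all genes. The 10 were Tubb3, Stmn2, Elavl4, Syt1, Snap25, Syp, Mapt, Rbfox3, Celf4 and Nsg2. The 12 were Dcx, Stmn4, Gap43, Dpysl3, Crmp1, Elavl3, Syn1, Vamp2, Cplx1, Sv2a, Map2 and Rtn1. Neither early nor synaptic genes kept to 1 side, with 3 and 6 of the early genes and 3 and 4 of the synaptic genes on each. In the same libraries 16 of 17 oligodendrocyte lineage genes were lower in replicate 2, among them Mbp, a myelin protein, at 5346 and 3212 CPM in replicate 1 and 221 and 127 CPM in replicate 2, and Olig1, a lineage factor, at 1691 and 745 CPM and at 112 and 72.6 CPM.

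In a limma fit of group and replicate set together, the replicate term passed 9 of 29 genes, 5 higher in replicate 2 (17.4% of all genes tested) and 4 lower (7.70%). Higher were Stmn2, by 2.46 (SE 0.24, adjusted p 0.00542), Celf4, by 2.02 (SE 0.23), Tubb3, by 1.52 (SE 0.24), Mapt, by 1.13, and Elavl4, by 0.87. Lower were Cplx1, at -1.84 (SE 0.32, adjusted p 0.0195), Syn1, at -0.85 (SE 0.17), Vamp2, at -0.57, and Map2, at -0.58. All 9 went the same way in all 3 groups. With either VC- library left out 0 of 29 passed, with the VC+ library of replicate 1 or 2 left out 2 and 1 passed, and with the D0 library of replicate 1 or 2 left out 18 passed each time, against 42.0% and 43.0% of all genes tested. The replicate number goes with the D4 and D5 labels in the differentiated cells, and these cannot be told apart.

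**Figure D4:**
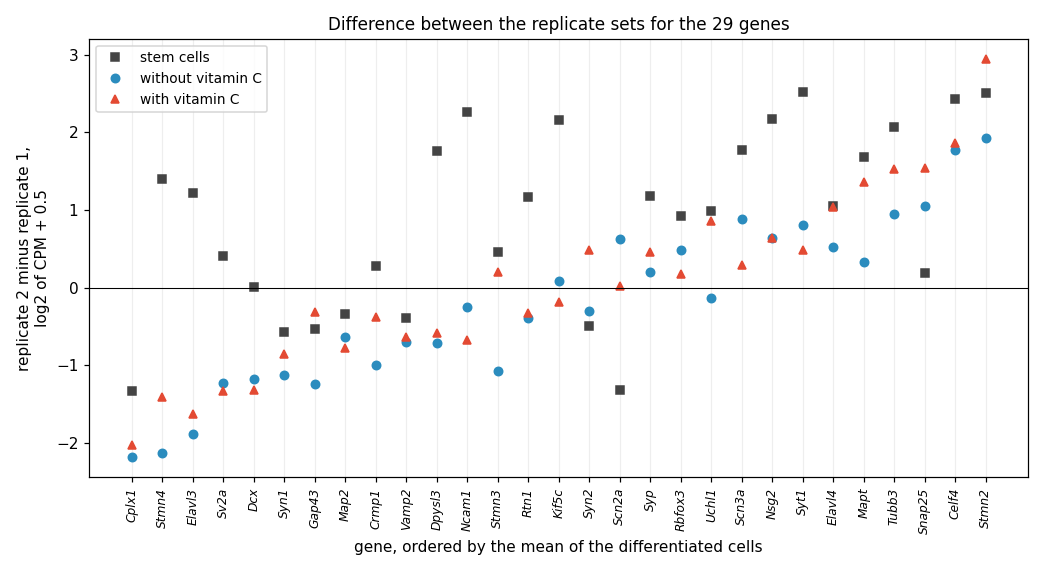
Replicate 2 minus replicate 1 of log2(CPM + 0.5) for the 29 genes (x axis, ordered by the mean of the differentiated cells), in stem cells (squares), cells without vitamin C (circles) and cells with it (triangles). From Cplx1 on the left to Stmn2 on the right the differentiated cells run from -2.18 to 2.95, and 22 of 29 squares lie above 0.

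Lists of other genes of the same systems were read in the same way. Of 31 further presynaptic genes measured, 15 were higher and 5 lower in both replicates without vitamin C than in stem cells. Their median was 0.41, from 0.76 in replicate 1 and 0.06 in replicate 2. With it 14 were higher and 7 lower. Of all genes tested, 28.6% were higher and 29.5% lower in both replicates without vitamin C, and 28.6% and 29.0% with it. Without a replicate block, limma and DESeq2 passed 0 of the 31 in each comparison. Against stem cells DESeq2 then passed 0.631% of all genes without vitamin C and 1.20% with it. Its calls with a block are given below. At an unadjusted p under 0.05 limma had 2 with vitamin C against stem cells (4.29% of all genes), Sv2b at -2.66 and Snap91 at 1.59. Syt11, a synaptotagmin found on many vesicles, stood at 70.9, 359 and 359 CPM and at 225, 114 and 135 CPM. With against without vitamin C, 9 of the 31 were higher and 11 lower in both replicates, against 30.0% and 26.4% of all genes.

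Of 26 further genes of the neuronal cytoskeleton and adhesion, 9 were higher and 4 lower than in stem cells in both replicates without vitamin C, and 12 were up in replicate 1 and down in replicate 2. Their medians were 1.14 and -0.22. Of all genes tested, 28.6% were higher and 29.5% lower in both replicates in that comparison. Tubb2b, a beta tubulin of progenitors and young neurons, stood at 1112, 1518 and 1178 CPM and at 731, 480 and 570 CPM. Nfasc, an adhesion molecule of axons that oligodendrocytes also make, stood at 60.9, 796 and 1817 CPM and at 164, 140 and 190 CPM. Without a replicate block, limma and DESeq2 passed 0 of 26 in each of the 3 comparisons. The calls of DESeq2 with a block are given below. At an unadjusted p under 0.05 limma had 3 without vitamin C against stem cells (3.23% of all genes), Ina at 1.62, Kif5a at 1.17 and Nrcam at -0.89. With vitamin C it had 1 (4.29% of all genes), Kif5a at 1.33.

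Neurogenic transcription factors went both ways. Of 18 measured, 7 were higher and 6 lower than in stem cells in both replicates without vitamin C, and 7 and 6 with it. Of all genes tested, 28.6% were higher and 29.5% lower without vitamin C, and 28.6% and 29.0% with it. Sox11, a factor of newborn neurons, stood at 70.0, 64.4 and 31.7 CPM in replicate 1, against 101, 35.8 and 26.3 CPM in replicate 2. DESeq2 passed Sox11 as lower with vitamin C than in stem cells (adjusted p 0.0434), while limma did not (adjusted p 1). Sox4, of the same family as Sox11 and the highest of the list, stood at 337, 434 and 354 CPM and at 288, 223 and 169 CPM. Sox11 was named for passing the test after its values were seen.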

How the data were processed

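Of 24 samples, the 6 RNA-seq libraries were analysed; the other 18, of DNA, were not used here. The kit was Illumina's TruSeq for RNA, per the labels' protocols. Each gene has a deposited CPM value in each library, which the authors normalized without pooling replicates. The submitters' processing notes list, with no role, the rn5 build and, of tools for RNA, STAR 2.5.1 and edgeR 3.12.1; how reads were counted, on which annotation, and how genes were filtered is not given in the sources used here. Within a library 100% of values were whole multiples of what 1 read is worth (relative tolerance 1e-06), so whole reads were recovered; listed reads were 60.2% to 67.7% of the total used for scaling. A count of 0 allows up to 3 reads, 0.140 to 0.378 CPM, covering counting error only.

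The 11823 genes that reached 1 CPM in 2 or more libraries were tested with limma 3.58.1 (trend, two-sided) in R 4.3.3 on log2(CPM + 0.5), 3 groups in 1 fit with 3 residual degrees of freedom, at a Benjamini-Hochberg adjusted p under 0.05 over all genes tested. The smallest p of an exact permutation test at 2 against 2 is 0.333, so none was run. The replicate term came from a fit with group and replicate. Checks used edgeR 4.0.16 (quasi-likelihood) and DESeq2 1.42.0 on recovered reads. The fits were tested on simulated data, where the unpaired limma fit had almost no power at a replicate difference like the one here. A replicate block raised its power there, in data built with a replicate difference shared by all groups. Lists were described by counts and medians. The genes and lists were chosen with earlier results of these data known. Full values were given for early and synaptic genes, for others at 20 CPM or above, and for Rest. The plan for each pathway list was to give the 2 genes of highest mean CPM. Under that plan only Syt11 of the further presynaptic list and only Sox4 of the neurogenic list were given. Rbfox3, Scn2a, Scn3a, Sox11, C1qa and overlapping genes were added after their values were seen, and marker lists were given as sums. Results for some genes of the pathway lists are not reported here.

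Libraries with vitamin C share their replicate number and D label with those without it. Their deviations from the group means correlated at 0.914 across genes, so a fit with a replicate block is also given for these 2 groups. The fit printed is the unpaired one unless a replicate block is named, so its SEs and p-values include the difference between replicate sets. With a replicate block limma and DESeq2 passed 0 of the 29 genes between these groups, as without it.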

Additional observations from a re-analysis of the deposited data

How the results depend on the processing

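With 2 libraries per group, a single library decided several values. Pseudocounts of 0.1 and 2, no filter, a filter at 5 CPM, median-of-ratios scaling and no trend changed no count of calls among the 29 genes by more than 1.5 times and moved the medians of the 29, the early and the synaptic genes by less than the spread between replicates (the other lists were not rerun); that scaling moved the median of all genes by at most 0.0256 (log2). Over all genes limma called 0 in the 3 comparisons between groups (62, 382 and 507 at an unadjusted p under 0.05), and edgeR also called 0 (66, 384 and 505). DESeq2 called 6 with against without vitamin C, 65 without vitamin C against stem cells and 135 with it against stem cells, and 1 of the 29 genes without vitamin C against stem cells.

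With a replicate block, limma still called 0 of 29 genes in each comparison, with 0 (with against without vitamin C), 11 and 11 at an unadjusted p under 0.05. Over all 11823 genes tested it also called 0 in each, with 404, 1550 and 1885 at an unadjusted p under 0.05. DESeq2 with the replicate block called 32, 458 and 761 genes over all, with 0, 6 and 6 of the 29: Mapt, Stmn4, Celf4, Dpysl3 and Tubb3 were higher than in stem cells both without and with vitamin C, Stmn2 also without it and Nsg2 also with it. Of the further presynaptic genes, DESeq2 with the block passed Sv2b as lower than in stem cells without and with vitamin C. With vitamin C it also passed Slc17a6, Snap91 and Syt5 as higher. Of the further cytoskeleton and adhesion genes it passed Cntn1, Kif5a and Tagln3 as higher in both comparisons. Ina was also passed as higher without vitamin C and Tubb4a with it. Stem cells share only a replicate number with the differentiated cells. Their deviations correlated at 0.730 and 0.688 across genes, so this pairing is a hint from the data and not the design. The cause of these changes in count was not tested.

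Without each library in turn, the lone library of its group being assumed to vary like the others, limma called 0 of 29 genes in every comparison between groups, which says nothing of stability since it called 0 genes with all libraries. For with against without vitamin C the medians ran from -0.18 to 0.0714 (29 genes), -0.86 to 0.18 (early) and -0.45 to 0.0425 (synaptic). Without vitamin C against stem cells they ran from 0.28 to 0.92, 0.58 to 1.81 and -0.0059 to 0.48, and with vitamin C against stem cells from 0.20 to 0.82, 0.20 to 1.48 and 0.04 to 0.40. The replicate term called 0 to 5049 genes and 0 to 18 of the 29.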

Other observations

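Few broadly expressed paralogs of the neuronal genes were higher than in stem cells in both replicates. Without vitamin C 2 of 20 measured were higher and 8 lower in both, against 28.6% and 29.5% of all genes tested. With it 2 were higher and 7 lower, against 28.6% and 29.0%. The medians were -0.09 and -0.12. Stmn1, Dpysl2 and Syt11 are counted here and also in the lists of further cytoskeleton and presynaptic genes. Tubb5, the general beta tubulin, stood at 1106, 953 and 810 CPM in replicate 1, in the order stem cells, no vitamin C and vitamin C, and at 1002, 673 and 693 CPM in replicate 2. Rtn4, the reticulon also known as Nogo, stood at 319, 491 and 429 CPM and at 680, 373 and 370 CPM, with the same opposite directions by replicate as Rtn1. The difference between these paralogs and the neuronal genes was not tested.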
